A study of Homo sapiens with 8 samples.

Results

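The genes described here are sensors of viral RNA and response genes of the interferon pathway in human glioblastoma cells of the established line U-87MG. They were chosen by name, with earlier results of these data known, so counts and percentiles over them are descriptions only. The choice held 8 genes. A gene counted as measured where a row of the expression table was paired with its symbol alone, which held for 6 of the 8 (DDX58, IFIH1, USP18, STAT2, IRF1 and IRF9) among 11822 genes in all. IFIT1 and IFIT3 were not analysed here. The cells were kept for 24 h with 50 µM I3CA (4 arrays), short for indole-3-carboxaldehyde, a tryptophan derivative, or for 24 h with its solvent DMSO (4 arrays). All samples are labelled as plain U-87MG, and the labels name no interferon or virus as an agent for them. Biological replicates 1 to 4 are numbered within each group, but separate cultures are not named; without them, a p-value covers the spread between samples that may be technical. The submitters count I3CA among known or presumed ligands of AHR, the aryl hydrocarbon receptor, which is a transcription factor switched on by small molecules, and the comparison asks which genes respond to it.

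Double-stranded RNA in the cytoplasm is recognised by the helicases RIG-I (encoded by DDX58, now named RIGI) and MDA5 (encoded by IFIH1), which signal through the adaptor MAVS to induce type I interferons. Secreted interferon binds the receptor IFNAR1/IFNAR2 and activates JAK kinases, after which STAT2 and IRF9 act in a complex that switches on genes carrying an interferon-stimulated response element. DDX58 and IFIH1 are themselves induced by interferon, and so is USP18, which removes ISG15 from proteins and blocks signalling at IFNAR2. IRF1 is a transcription factor induced by interferon gamma through a gamma-activated site in its promoter. AHR meets this pathway at TIPARP, an AHR-induced ADP-ribosyltransferase that restrains both AHR and the kinase TBK1 upstream of interferon.

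The promoter letters through which interferon and AHR are known to act differ among these genes, and the stretches that hold them are shown here as background. RefSeq promoters (GRCh38.p14) were at hand for 5 of the 6 measured genes, USP18 being the other one, and the 250 bases before each gene start were searched on both strands. The interferon-stimulated response element core was searched as GAAANNGAAA, the gamma-activated site as TTCNNNGAA (which reads the same on both strands), and the AHR response element core as GCGTG. These were found in 3.02%, 6.57% and 32.2% of all 35116 promoters of that length. Capitals mark the matches, and each line runs 5′ to 3′ on the strand of the gene.
IFIH1, chr2:162318821-162318850, minus strand, 2 overlapping interferon response cores on the reverse strand: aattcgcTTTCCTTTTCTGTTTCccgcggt
IFIH1, chr2:162318686-162318715, minus strand, interferon response core: gaagagaatcGAAACAGAAAccaaagtcag
IRF1, chr5:132490879-132490908, minus strand, gamma-activated site: aacagcctgatTTCCCCGAAatgacggcac
IRF9, chr14:24161191-24161220, plus strand, gamma-activated site: gaccacgtgatTTCTGGGAAaaggccctcc
DDX58, chr9:32526230-32526259, minus strand, AHR core on the reverse strand: tttccccgctcgcCACGCcctcctcctacc
IRF1, chr5:132490865-132490894, minus strand, AHR core on the reverse strand: cccgaaatgacggCACGCagccggccaatg
IFIH1 held 3 interferon response cores and no AHR core, DDX58 and IRF1 held 1 AHR core each and no interferon response core, and STAT2 held none of the 3 motifs in this window. TIPARP, the AHR target used as a comparator below, held 2 AHR cores. The motifs do not overlap each other in these stretches except for the first 2 cores of IFIH1. A match describes letters only and is not a measured binding site.

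Values are log2 expression from the deposited table, 1 value per probe set and array, and a difference is I3CA minus DMSO on that log2 scale. Levels of different genes cannot be set against each other, because each probe set has its own brightness. Genes were tested with limma over all 11822 genes, with a threshold of 0.05 on the p-value after Benjamini-Hochberg adjustment. Array medians lay between 8.80 and 8.83, and any 2 arrays correlated across genes at 0.956 to 0.974. Both arrays numbered 4 stood apart on the first principal component, at -16.4 for I3CA and -15.3 for DMSO, where the other 6 arrays lay between -0.39 and 11.2. Of 10 glial and glioma markers 6 were measured, while SOX2, OLIG2, S100B and FABP7 were not analysed here. Means with I3CA and DMSO were 13.1 and 13.1 for VIM, 12.1 and 12.1 for TNC, and 11.2 and 11.1 for CD44. They were 10.1 and 10.0 for EGFR, 8.34 and 8.28 for GFAP, and 8.19 and 8.08 for NES. The deposited values come without a background estimate, and the leukocyte marker PTPRC, which a glioma line should lack, is listed at a mean of 8.44 with I3CA and 8.38 with DMSO, so a listed level is not by itself evidence of expression. Means per array over the 4 measured leukocyte markers ran from 8.52 to 8.80 with I3CA and from 8.54 to 8.78 with DMSO. Ranked by mean brightness among all genes, PTPRC stood at percentile 31.6, and the 4 markers ran from 29.5 (AIF1) to 54.8 (CSF1R). The chosen genes stood at 3.09 (IFIH1), 17.1 (USP18), 25.2 (IRF9), 27.1 (IRF1), 35.9 (DDX58) and 63.1 (STAT2).

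None of the 6 measured genes passed the adjusted threshold in either direction (limma adjusted p = 1.00 for each), where 0.00846% of all genes passed as higher and 0% as lower. At an unadjusted p under 0.05, 1 of the 6 was lower and 0 were higher, against 1.42% and 1.74% of all genes. Means were lower with I3CA for DDX58, IFIH1 and IRF1 and higher for USP18, STAT2 and IRF9. The median difference of the 6 was -0.07, beside -0.01 over all genes, and it came to -0.017 when DMSO replicate 1 was left out and to -0.030 when I3CA replicate 4 was. The arrays of the groups overlapped for every one of the 6, where 1.92% of all genes had groups that did not overlap.

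**Figure D1:**
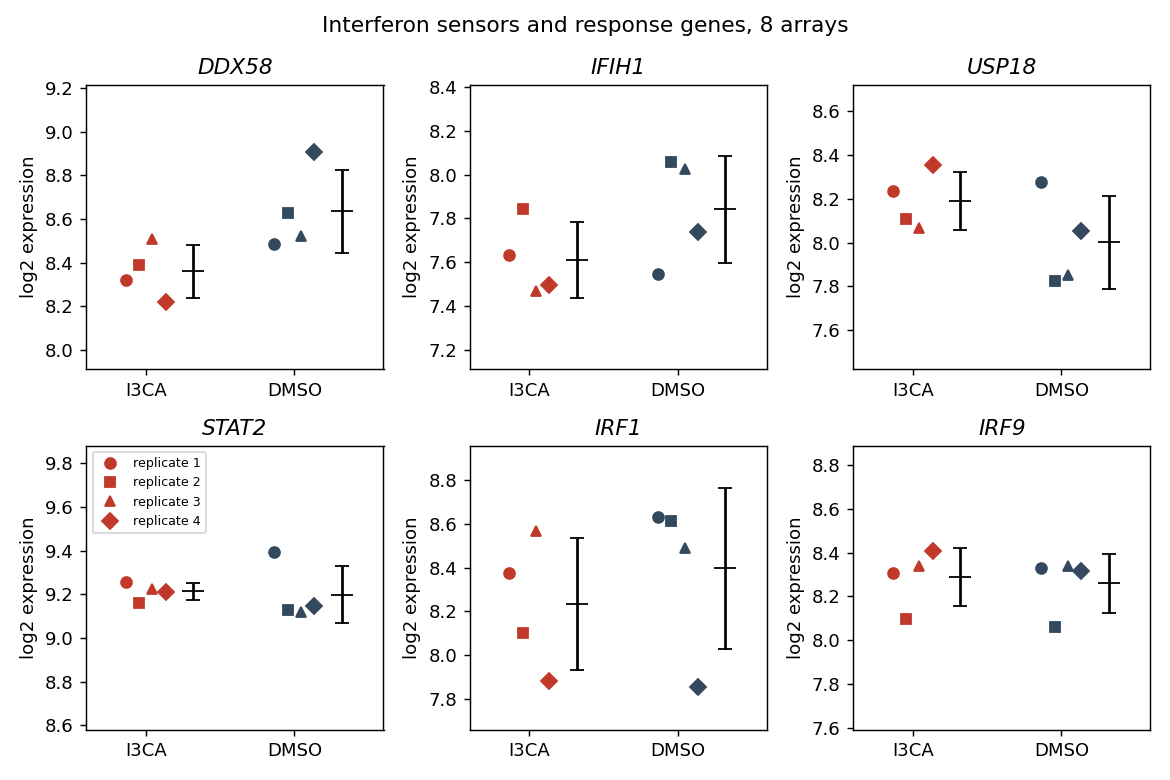
Log2 expression (y axis) of the 6 measured genes on each array, I3CA left and DMSO right, with the marker shape giving the replicate number and the black bar the mean ± SD of 4 arrays; every panel spans the same height. The groups overlap in each panel, and IRF1 shows both arrays numbered 4 at the bottom of their groups.

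Of the sensors, DDX58 (probe set 17093094) had the smallest unadjusted p of the 6. Its log2 expression was 8.32, 8.39, 8.51 and 8.22 in I3CA replicates 1 to 4, against 8.49, 8.63, 8.52 and 8.91 in DMSO replicates 1 to 4. Apart from I3CA replicate 3, which lay just above DMSO replicate 1, all I3CA arrays were below all DMSO arrays. The difference was -0.28 ± 0.11 (SE), a 0.826-fold level with a 95% interval of 0.699 to 0.976-fold (limma unadjusted p = 0.028, adjusted p = 1.00). The exact two-sided permutation test of this gene over all 70 assignments of the arrays gave p = 0.057, where the smallest possible p is 0.029. The difference was -0.14 without both arrays numbered 4 (limma unadjusted p = 0.18) and -0.19 without DMSO replicate 4 alone (unadjusted p = 0.080). On each array the value of this row was exactly equal to that of at least 4 other rows. Such coincidence on every array was seen in 11.0% of all rows.

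IFIH1 (probe set 16904379), the sensor of long double-stranded RNA whose promoter held the 3 interferon response cores, lay at 7.63, 7.84, 7.47 and 7.49 with I3CA. With DMSO it lay at 7.55, 8.06, 8.03 and 7.74. The row was dim, at percentile 3.09 of brightness among all genes. The highest I3CA array stood above DMSO replicates 1 and 4, so the groups overlapped widely. The difference was -0.23 ± 0.13 (SE) on the log2 scale, with an interval of 0.696 to 1.04-fold (limma unadjusted p = 0.11). Leaving out 1 array moved the difference to between -0.33 (without DMSO replicate 1, limma unadjusted p = 0.025) and -0.16 (without DMSO replicate 2, unadjusted p = 0.27). DDX58 and IFIH1 stood at percentiles 1.68 and 2.96 of the differences of all genes, where percentile 2.5 is a difference of -0.25.

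USP18 (probe set 16926944), the brake on type I interferon signalling, lay at 8.24, 8.11, 8.07 and 8.35 with I3CA. With DMSO it lay at 8.28, 7.82, 7.85 and 8.05. DMSO replicate 1 exceeded 3 of the I3CA arrays, and the other DMSO arrays were below all of the I3CA arrays. The difference was 0.19 ± 0.12 (SE) on the log2 scale, an interval of 0.955 to 1.36-fold (limma unadjusted p = 0.13). Leaving out 1 array moved it to between 0.13 (without DMSO replicate 2, limma unadjusted p = 0.31) and 0.28 (without DMSO replicate 1, unadjusted p = 0.024). USP41 is a near-identical copy of USP18, so the row may also report that gene, which was not tested.

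STAT2 (probe set 16766094) and IRF9 (probe set 16782692), which act together in the interferon-activated complex, had the smallest differences. STAT2 lay at 9.26, 9.16, 9.22 and 9.21 with I3CA, against 9.39, 9.13, 9.12 and 9.15 with DMSO. Its difference was 0.02 ± 0.08 (SE), with a 95% interval of 0.887 to 1.15-fold, and it changed sign when DMSO replicate 2, 3 or 4 or both arrays numbered 4 were left out. IRF9 lay at 8.31, 8.10, 8.34 and 8.41 with I3CA, against 8.33, 8.06, 8.34 and 8.32 with DMSO. Replicate 2 was the lowest IRF9 array in both groups. The IRF9 difference was 0.03 ± 0.10 (SE), with an interval of 0.877 to 1.19-fold, and its sign changed without DMSO replicate 2 or I3CA replicate 4.

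IRF1 (probe set 16999777), the interferon gamma-induced factor whose promoter held both a gamma-activated site and an AHR core, had the widest spread between arrays of the 6. It lay at 8.38, 8.10, 8.57 and 7.88 with I3CA, against 8.63, 8.61, 8.49 and 7.85 with DMSO. The arrays numbered 4 were the lowest in both groups and differed from each other by 0.03. The difference was -0.16 ± 0.19 (SE) on the log2 scale, with an interval of 0.664 to 1.20-fold (limma unadjusted p = 0.41). The within-group spread of IRF1 ranked at percentile 94.7 of all genes. Without both arrays numbered 4 the difference was -0.23 (unadjusted p = 0.11). Without DMSO replicate 4 alone it was -0.35 (unadjusted p = 0.048), and without I3CA replicate 4 alone it was -0.05 (unadjusted p = 0.81).

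**Figure D2:**
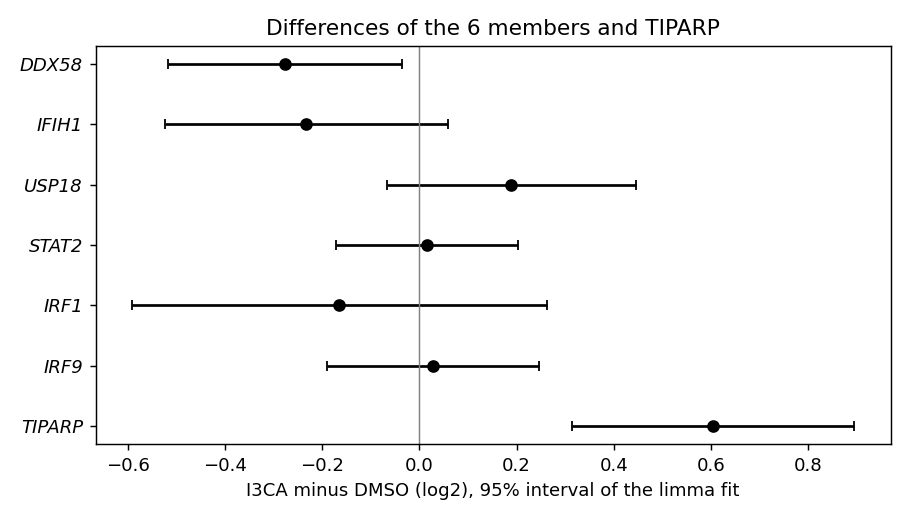
Difference I3CA minus DMSO (x axis, log2) of the 6 measured genes and of TIPARP, with the 95% interval of the limma fit as bars. The intervals of IFIH1, USP18, STAT2, IRF1 and IRF9 include 0, that of DDX58 ends at -0.04, and TIPARP lies apart at 0.60; no gene shown passed the adjusted threshold.

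TIPARP (probe set 16947294), which links AHR to interferon induction, had the smallest unadjusted p among the interferon genes examined. It lay at 10.03, 10.03, 9.66 and 10.27 with I3CA, against 9.30, 9.59, 9.24 and 9.44 with DMSO. Every I3CA array was above every DMSO array, with a difference of 0.60 ± 0.13 (SE; limma unadjusted p = 0.00085, adjusted p = 0.79). The 1 gene past the adjusted threshold, SLC16A6, was no interferon gene.

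The wider pathway was read from 7 lists holding 145 different genes, of which 103 were measured, the 6 included. None of the 103 passed the adjusted threshold in limma, and at an unadjusted p under 0.05 there were 1 higher gene (TIPARP) and 2 lower genes (DDX58 and TLR3), together 2.91% beside 3.16% of all genes. The median difference of the 103 was -0.014, beside -0.0085 over all genes, and 58 of them (56.3%) had a lower mean with I3CA, beside 53.4% of all genes. TIPARP was the 1 gene of the 103 whose groups did not overlap, a share of 0.971% beside 1.92% of all genes.

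Among 16 measured sensors and adaptors the median difference was -0.04, and 10 had a lower mean with I3CA. TLR3, the endosomal receptor for double-stranded RNA, lay at 7.79, 7.76, 7.95 and 7.87 with I3CA, against 8.04, 8.23, 7.99 and 7.92 with DMSO. TLR3 differed by -0.20 ± 0.09 (SE, limma unadjusted p = 0.049), in a row at percentile 10.7 of brightness. EIF2AK2, the kinase PKR that also binds double-stranded RNA, differed by 0.02 ± 0.10 (SE). DHX58, the third helicase of the RIG-I family, differed by -0.10 ± 0.12. Downstream of the sensors, TRAF3, an adaptor that recruits TBK1, differed by -0.14 ± 0.14 and the adaptor MAVS by 0.09 ± 0.09. TBK1 itself differed by -0.06 ± 0.10.

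Of 9 listed interferons, IFNL3 (interferon lambda 3) was the 1 gene measured, at a mean of 7.81 with I3CA and 7.82 with DMSO. This was a dim row, at percentile 5.89 of brightness. The 10 measured receptors, kinases and STATs had a median difference of 0.01. IFNAR1, a chain of the type I interferon receptor, differed by -0.26 ± 0.13 (SE; limma unadjusted p = 0.067), with I3CA arrays at 9.58, 9.61, 9.12 and 9.58 and DMSO arrays at 9.59, 9.98, 9.72 and 9.66. Its lowest array, I3CA replicate 3, lay below the rest of both groups. Of the interferon gamma receptor chains, IFNGR2 differed by -0.15 ± 0.09 and IFNGR1 by 0.19 ± 0.13. The kinases JAK1 and JAK2 differed by 0.01 ± 0.10 and 0.01 ± 0.13.

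The 8 measured genes of the interferon regulatory factor list had a median difference of 0.04, with IRF1 the most negative. IRF7, which amplifies interferon production, differed by 0.19 ± 0.20, and IRF3, the factor activated by TBK1, by 0.05 ± 0.10. IRF2BPL differed by 0.17 ± 0.08 (SE; limma unadjusted p = 0.054) and IRF2BP1 by -0.08 ± 0.10, both encoding relatives of the IRF2 binding protein.

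Interferon-induced effectors were the longest list, with 40 of 62 genes measured. Their median difference was -0.04, with differences between -0.28 and 0.08. Of the 40, 24 had a lower mean with I3CA (60.0%, beside 53.4% of all genes) and 16 a higher one. In limma 0 of the 40 passed the adjusted threshold and 0 had an unadjusted p under 0.05, where 3.16% of all genes did. The largest size belonged to IFI27, a strongly interferon-induced mitochondrial protein gene, at -0.28 ± 0.19, in a dim row (percentile 7.12 of brightness). IFITM1, which blocks entry of viruses at the membrane, differed by -0.26 ± 0.16, and GBP2, an interferon-induced GTPase, by -0.19 ± 0.13. MX1, a dynamin-like antiviral GTPase, had means of 10.5 ± 0.28 with I3CA and 10.7 ± 0.16 with DMSO (SD, n = 4 each) and a difference of -0.13 ± 0.14 (SE).

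The 16 measured genes of antigen presentation had a median difference of -0.01. NLRC5, an activator of MHC class I genes, differed by 0.18 ± 0.10 (SE; limma unadjusted p = 0.084), PSME2, a proteasome activator subunit, by -0.15 ± 0.10, and TAP2, a peptide transporter chain, by -0.10 ± 0.10. HLA-C, an MHC class I heavy chain, lay at a mean of 11.0 with I3CA and 11.1 with DMSO and differed by -0.01 ± 0.07. Among the 12 measured negative regulators, the median was -0.01. Apart from TIPARP and USP18, the leading genes there were CYLD, a deubiquitinase (0.08 ± 0.08), and PTPN2, a phosphatase of JAK kinases (-0.11 ± 0.15).

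**Figure D3:**
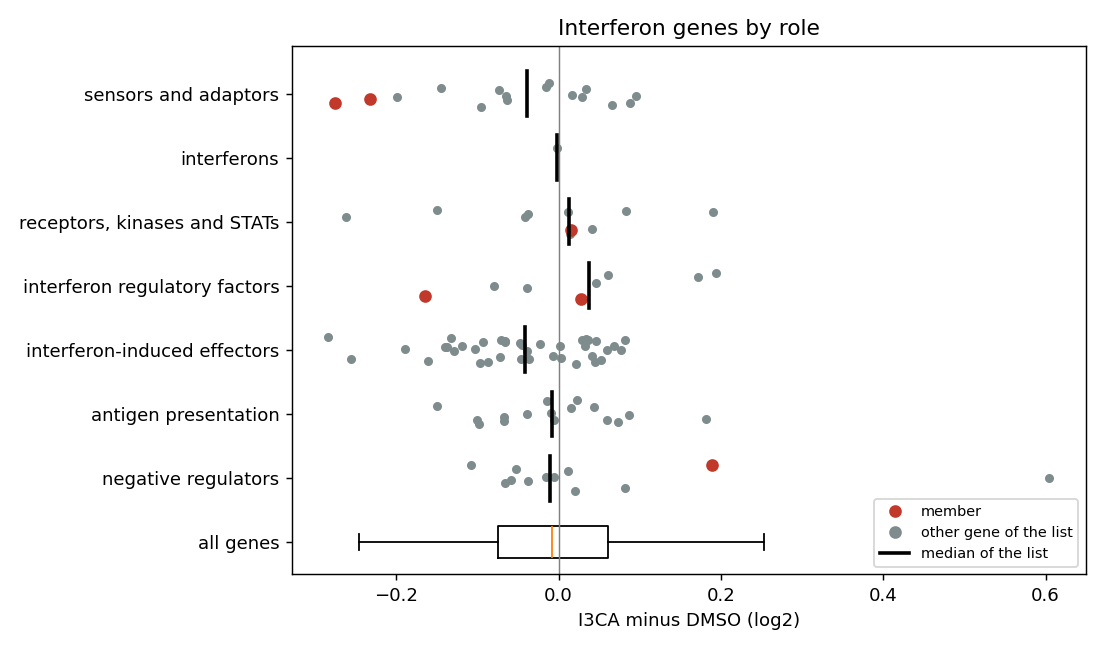
Difference I3CA minus DMSO (x axis, log2) of each measured gene by role, with the 6 chosen genes in red, the other genes in grey and the median of each list as a black bar; the vertical scatter within a list has no meaning. The box for all genes spans -0.07 to 0.06 with whiskers at percentiles 2.5 and 97.5 (-0.25 and 0.25), and TIPARP at 0.60 is the 1 interferon gene beyond the upper whisker. Beyond the lower whisker lie IFI27 (-0.28), DDX58 (-0.28), IFNAR1 (-0.26) and IFITM1 (-0.26).

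For IRF1, STAT2 and IRF9 the difference was smaller than its SE. IRF1 was most like IFIT5, an interferon-induced RNA-binding protein gene, with a Pearson r of 0.96 and a Spearman rho of 0.93 over the 8 arrays after subtraction of each group mean. IFIT5 lay at 8.57, 8.29, 8.69 and 8.23 with I3CA, against 8.58, 8.70, 8.53 and 8.24 with DMSO, so its arrays numbered 4 were also the lowest of both groups. In all, 20 of the 103 interferon genes (19.4%) had their lowest value in array 4 of both groups, where 12.2% of all genes did. Array 4 was the highest of both groups for 9 of the 103 (8.74%), where 11.7% of all genes did so. Array 2 was the highest of both groups for 13 of the 103 (12.6%), beside 6.86% of all genes. The 20 genes lowest in array 4 included the interferon-related genes TBK1, IRF3, DDX60, B2M and TAP1. DDX58 did not follow this pattern, with DMSO replicate 4 its highest and I3CA replicate 4 its lowest array.

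DDX58 was most like SAMD9L, an interferon-induced growth-restraining gene (r = 0.81), IFIH1 most like TAP1, a peptide transporter chain (r = 0.86), and USP18 most like IFNL3 (r = 0.90). The USP18 and IFNL3 rows stood at percentiles 17.1 and 5.89 of brightness, so their likeness is not by itself evidence that either gene was expressed. STAT2 was most like IFITM2 (r = 0.91) and IRF9 most like IFITM3 (r = 0.93), both encoding interferon-induced membrane proteins. Each r is the highest among 102 interferon genes compared over 8 arrays that share 1 normalization and describes these arrays only. Between pairs of the 6 genes, r after subtraction of group means ran from -0.78 (IFIH1 with USP18) to 0.79 (USP18 with STAT2). For DDX58 with IFIH1 that r was -0.03. The mean profile of the 6 genes was most like LXN (r = 0.95), ENPP2 (r = 0.94) and HPSE (r = 0.93) among 11816 other genes, over the 8 arrays without subtraction of group means. With group means subtracted, the r of these genes were 0.90, 0.94 and 0.93. Picked as the highest of 11816 over 8 arrays, they too describe these arrays only.

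**Figure D4:**
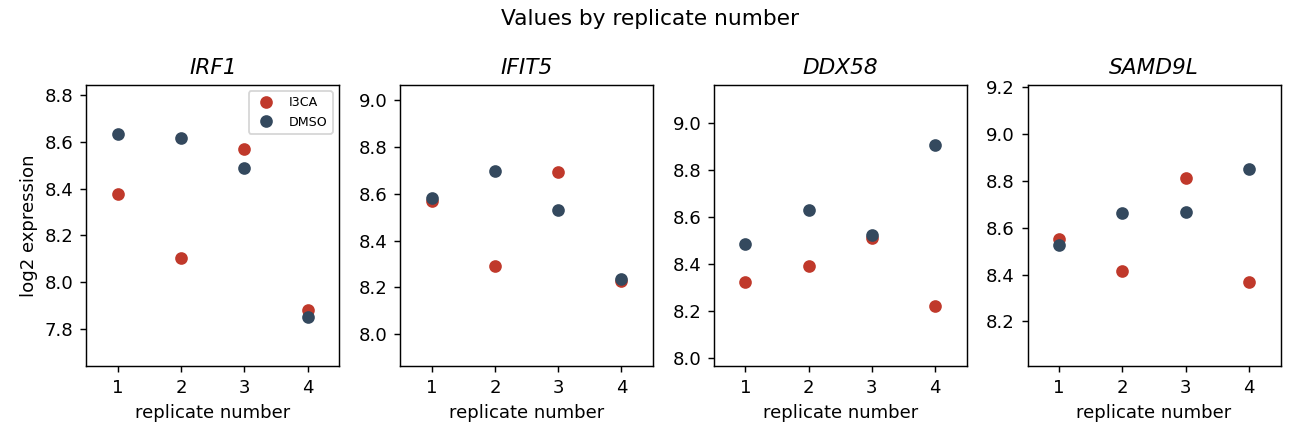
Log2 expression (y axis) against replicate number (x axis) for IRF1 and DDX58, each beside the interferon gene most like it (IFIT5 and SAMD9L), with I3CA in red and DMSO in dark blue. IRF1 and IFIT5 are low in number 4 of both groups, whereas DDX58 and SAMD9L are high in DMSO replicate 4 and low in I3CA replicate 4.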

How the data were processed

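Expression was measured in 8 samples of U-87MG cells, 4 per group, with biotin-labelled cDNA on whole-transcript arrays. The authors deposited log2 expression values, 1 per probe set and array. They were made with oligo and RMA, per the submitters' processing notes; versions and any filter on rows are not given in the sources used here. RMA corrects background, normalizes arrays by quantiles and summarises probes on the log2 scale. The number of arrays limits precision. Of 13486 rows, 11850 had 1 gene symbol in GEO's platform annotation, 657 had several and 979 were not listed; the brightest row stood for a gene, leaving 11822. Symbols were kept as annotated. The groups were compared with limma 3.58.1 in R 4.3.3 (lmFit, eBayes, two-sided, no covariate), with p-values adjusted over all 11822 genes. The 8 genes and the interferon lists were chosen with earlier results of these data known. Named were the 6 measured genes, TIPARP, up to 3 further genes per list with the smallest unadjusted p, SLC16A6 as a reference, and the most alike genes; DHX58, EIF2AK2, TBK1, JAK1, JAK2, IRF3, MX1, HLA-C, DDX60 and B2M were named after their values were seen. Promoter sequences came from RefSeq.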

Additional observations from a re-analysis of the deposited data

Results flagged for a closer look

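In 6 of 56 groups of 4 arrays looked at, 1 array lay far from the other 3; chance flags about 1 in 20 such groups, or 2.8 here. Among the chosen genes these were STAT2 at 9.395 in DMSO replicate 1, with the other DMSO arrays at 9.12 to 9.15, and IRF9 at 8.059 in DMSO replicate 2, with the others at 8.32 to 8.34. Among the further pathway genes, I3CA replicate 3 was apart for TAP2 at 8.406 (others 8.22 to 8.23) and for IFNAR1 at 9.123 (others 9.58 to 9.61). The mean of the 40 effector genes was also apart in I3CA replicate 3, at 8.954, with the other I3CA arrays at 8.86 each and the DMSO arrays at 8.90 to 8.95. MAVS was apart in DMSO replicate 4 at 9.276 (others 9.02 to 9.06).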

How the results depend on the processing

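In 17 alternative fits (each array left out, both arrays numbered 4 left out, the replicate block, other scalings, row choices and limma settings), 0 of the 6 measured genes and 0 of the interferon list genes passed the adjusted threshold. DDX58, IFIH1 and IRF1 stayed lower and USP18 higher in all of the fits that held them. Other row choices could not change these differences, because each of these genes had 1 row, nor could the trend and robust limma setting. The STAT2 difference reversed to -0.0076, -0.011 and -0.0013 without DMSO replicate 2, 3 or 4 and to -0.00067 without both arrays numbered 4, in a range of -0.011 to 0.081 with 1 array left out. The IRF9 difference reversed to -0.039 without DMSO replicate 2 and to -0.012 without I3CA replicate 4, in a range of -0.039 to 0.091. The cause of these reversals was not tested. The median over the 6 genes ranged from -0.11 to -0.017 with 1 array left out, and the value nearest 0 came without DMSO replicate 1. Deviations from the group means correlated between same-numbered arrays at 0.04, 0.07, 0.05 and 0.32 in the order of their numbers, and 2 of 8 arrays correlated best with the array of their own number, so samples were not treated as paired. With the replicate block 0 of the 6 genes and 1 gene of all passed, as without it. The limma unadjusted p of DDX58 was 0.053 with the block, against 0.028 without it. For the other measured genes it was lower with the block: 0.075 against 0.11 for IFIH1, 0.064 against 0.13 for USP18 and 0.19 against 0.41 for IRF1. For IRF9 it was 0.70 against 0.78 and for STAT2 0.85 against 0.86. A block leaves the differences themselves as they are in this balanced design. Of the 6, only STAT2 was left when genes under the median brightness were dropped, so the others and the median have no value there. Signal over background is not given, which limits what dim rows can show.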

Other observations

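The value of the DDX58 row coincided exactly, to all deposited digits, with that of 4 to 8 other rows on every array. Those rows were mostly different from array to array: 46 different rows in all, none shared on more than 2 arrays. Such coincidence on all 8 arrays was seen in 1478 of 13486 rows (11.0%), whereas 8445 rows coincided with no other row on any array, among them IFIH1, USP18, STAT2 and IRF9. IRF1 coincided on 1 array. The median within-group SD was 0.22 for rows coinciding on all arrays and 0.14 for rows coinciding on none, and DDX58 lay at 0.16.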
